A study of Mus musculus with 3 samples.

Results

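The genes described here were 39 enzymes of amino acid breakdown, listed by symbol and found in the feature list of the deposited count matrices, where they made up 39 of 32285 features. They were sorted into 10 groups by the amino acid or step they serve. Every group was measured in single-nucleus RNA sequencing (snRNA-seq) libraries of frozen mouse liver, in which RNA is counted by unique molecular identifiers (UMIs) inside sorted single nuclei. The study compared male C57BL/6N mice (C57BL/6 on the sample labels) that were 8 weeks old when the diets began. The SD library came from a mouse group kept on a standard diet. The MASLD library came from mice fed for metabolic dysfunction-associated steatotic liver disease (MASLD) on a dedicated diet, with a sugar solution of glucose and fructose, for 18 weeks. The Aza-TdC library came from mice on that same diet and sugar solution for 18 weeks that also received Aza-TdC (in full 5-aza-4'-thio-2'-deoxycytidine), a cytidine analogue that depletes the DNA methyltransferase DNMT1, by mouth at 2 mg/kg each day from week 14 to week 18. No group received the drug without the diet. Each group had 1 library, and the sources used here do not give how many animals it came from. No difference between groups therefore has a replicate check, and no test was possible.

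The liver removes surplus amino acids by moving the amino group to glutamate or releasing it as ammonia, which the urea cycle takes up, and by passing the carbon skeleton to glucose synthesis, to the citric acid cycle or to ketone bodies. Many of the enzymes are made mainly by hepatocytes, and several, such as the serine, histidine and glycine breaking enzymes, are known to be more abundant near the portal vein (periportal) than near the central vein (pericentral). Transcripts of some, such as Tat, are known to respond to glucagon, glucocorticoids and feeding.

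The libraries held 6928 to 7598 barcodes with medians of 5849 to 6383 UMIs. Hepatocyte nuclei were those of clusters that carried hepatocyte markers and no other class by a fixed list of marker genes: 6867 nuclei with 44386805 UMIs in SD, 6141 nuclei with 41645199 in MASLD and 6915 nuclei with 49881191 in Aza-TdC. The clusters hardly overlapped between libraries, so the comparison is between clusters by number: 0, 1 and 6 hold nearly all of the SD nuclei, 8, 9, 10 and 12 those of MASLD, and 10, 11, 12 and 13 those of Aza-TdC. Cluster 8, with 3278 of the MASLD nuclei, was led by Cidea and had the T cell marker Themis among its 10 leading genes. No hepatocyte cluster had a hepatocyte marker among its 10 leading genes. In cluster 8, 11 of 11 hepatocyte markers were present, beside 8, 7 and 6 in the SD clusters 0, 1 and 6. Results that rest on cluster 8 are given with and without it. Cluster 10 (172 MASLD and 134 Aza-TdC nuclei) was led by stress genes such as Nupr1, Gadd45a and Fgf21 and was shallow in MASLD, with a median of 1660 UMIs; leaving it out changed no call. Between 9 and 15 barcodes were shared by any 2 libraries.

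Levels are given as CPM, the UMIs of a gene per 1000000 UMIs of the hepatocyte nuclei of a library, and differences are log2 ratios of CPM. Values in parentheses after a ratio, a level or a share are 95% intervals that cover counting error only. A gene counted as higher or lower when its log2 ratio was at least 1 or at most -1, a 2-fold difference, with at least 50 UMIs over both libraries, and all 39 enzymes passed that minimum in every comparison. The 95% Poisson interval of a level lay within 5% of it except for Acmsd, Agxt, Amt and Sdsl in every library and Pccb in SD, and was widest at 11.4% for Acmsd in MASLD. Zones are terciles of a score, pericentral minus periportal markers, ranked within each library; a tercile is a range of that score and not a cell type, and 1561 SD, 1123 MASLD and 1474 Aza-TdC nuclei lay within 0.1 of a limit between terciles.

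Free RNA reaches every nucleus in such libraries. The enzymes' median level in endothelial nuclei, which should lack most of them, was 0.439 times the hepatocyte level in SD, 0.497 times in MASLD and 0.389 times in Aza-TdC, beside 0.581, 0.609 and 0.459 for the hepatocyte markers. Mitochondrial UMIs made up a median of 0.124% per hepatocyte nucleus in the SD library, 0.191% for MASLD and 0.0826% for Aza-TdC. A limit of 1% mitochondrial UMIs per nucleus changed no call, while the part of free RNA in the results was not tested.

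Since Aza-TdC acts on DNA methylation, the promoters of the enzymes with the largest differences are shown: the 4 that were higher past 2-fold in Aza-TdC than in MASLD, where the table held them, and Got1, the lowest in MASLD against SD. The sequences are the 250 bases before the annotated start, from RefSeq on GRCm38.p6, read 5′ to 3′ on the gene's strand, with each CpG (the motif CG, which reads the same on both strands) in capitals. The serine dehydratase Sds had no entry. Afmid, which removes the formyl group in tryptophan breakdown, held 15 CpGs at chr11:117825669-117825918 on the plus strand, and 27.3% of all 32851 promoters held at least as many. Gldc, the glycine-decarboxylating subunit of the glycine cleavage system, held 8 at chr19:30175442-30175691 on the minus strand (43.0% of promoters). Etnppl, which breaks down phosphoethanolamine, held 1 at chr3:130617198-130617447 on the plus strand (92.1% of promoters). Got1, the cytosolic aspartate aminotransferase, held 11 at chr19:43524606-43524855 on the minus strand (35.6% of promoters).
Afmid: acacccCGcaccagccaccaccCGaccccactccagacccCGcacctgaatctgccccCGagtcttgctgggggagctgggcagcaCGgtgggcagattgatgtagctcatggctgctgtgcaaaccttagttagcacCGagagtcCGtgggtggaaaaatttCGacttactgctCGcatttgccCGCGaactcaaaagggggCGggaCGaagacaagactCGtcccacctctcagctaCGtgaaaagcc
Gldc: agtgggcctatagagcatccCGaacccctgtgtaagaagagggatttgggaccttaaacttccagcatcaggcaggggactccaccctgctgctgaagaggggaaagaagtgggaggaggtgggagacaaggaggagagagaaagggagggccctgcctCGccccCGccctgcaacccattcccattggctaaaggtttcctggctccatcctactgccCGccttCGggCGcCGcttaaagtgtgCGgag
Etnppl: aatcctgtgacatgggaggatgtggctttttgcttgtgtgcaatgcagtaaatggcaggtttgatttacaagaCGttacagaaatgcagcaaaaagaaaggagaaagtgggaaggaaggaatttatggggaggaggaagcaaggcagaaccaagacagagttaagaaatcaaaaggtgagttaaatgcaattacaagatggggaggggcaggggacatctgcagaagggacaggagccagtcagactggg
Got1: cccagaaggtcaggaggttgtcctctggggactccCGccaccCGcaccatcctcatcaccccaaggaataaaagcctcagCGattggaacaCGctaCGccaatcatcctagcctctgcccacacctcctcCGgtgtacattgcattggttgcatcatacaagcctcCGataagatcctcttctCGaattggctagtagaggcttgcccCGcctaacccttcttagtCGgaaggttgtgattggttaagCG

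Over the 32 enzymes with an entry, the median was 7.5 CpGs, with a range from 0 to 46, beside a median of 6 over all promoters. Afmid and Gldc, which were higher past 2-fold in Aza-TdC than in MASLD, stood above that median. So did Got1, which was within 2-fold in that comparison, while Etnppl, also higher past 2-fold, held a single CpG. DNA methylation itself was not measured in these libraries.

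The comparison of MASLD with SD addressed what the diet did to these enzymes. Transcripts of most breakdown enzymes were less abundant in MASLD hepatocyte nuclei: 30 of 39 log2 ratios were below 0, with a median of -0.35, where the median over all 13989 genes measured was 0.15. The sum over the 39 enzymes was 17929 CPM in SD, 12248 CPM in MASLD and 15076 CPM in Aza-TdC. Past 2-fold, 7 were lower (Got1, Acmsd, Etnppl, Tat, Sds, Agxt and Cth), a share of 17.9% where 4.15% of all genes were lower. Csad, the taurine-forming cysteine sulfinate decarboxylase, was the 1 enzyme higher past 2-fold, where 11.9% of all genes were higher. Median-ratio scaling moves every ratio of this comparison by 0.13 downwards and put 11 enzymes past 2-fold lower. Without cluster 8, 4 enzymes were lower and 2 were higher, and Sds, Etnppl, Agxt and Cth were within 2-fold over all hepatocyte nuclei. The MASLD nuclei left are 1916 periportal, 578 middle and 369 pericentral, so their zone make-up differs from that of SD. Within the same terciles without it, the periportal ratios were -1.10 for Sds, -1.31 for Etnppl, -0.87 for Agxt and -0.75 for Cth. In the middle tercile they were -0.89, -1.36, -1.03 and -1.40.

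With the drug added to the diet, 4 enzymes were higher past 2-fold in Aza-TdC than in MASLD (Etnppl, Gldc, Afmid and Sds), where 2.05% of all 14204 genes measured were higher. No enzyme was lower past 2-fold, where 4.01% of all genes were lower. The median over the enzymes was 0.23, beside -0.09 over all genes, and 28 of 39 ratios lay above 0. Without cluster 8, Afmid alone was higher, Got1 was lower, and the median was 0.10. The MASLD nuclei then left are mostly periportal, so these values also carry a difference in zone make-up. Against SD, the Aza-TdC library had 3 enzymes higher past 2-fold (Csad, Gldc and Cdo1; 8.83% of all 14084 genes were higher) and 3 lower (Got1, Acmsd and Tat; 4.04% of all genes were lower). The MASLD library enters the first comparison and the second, so their ratios share its values and no relation between them was computed.

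**Figure D1:**
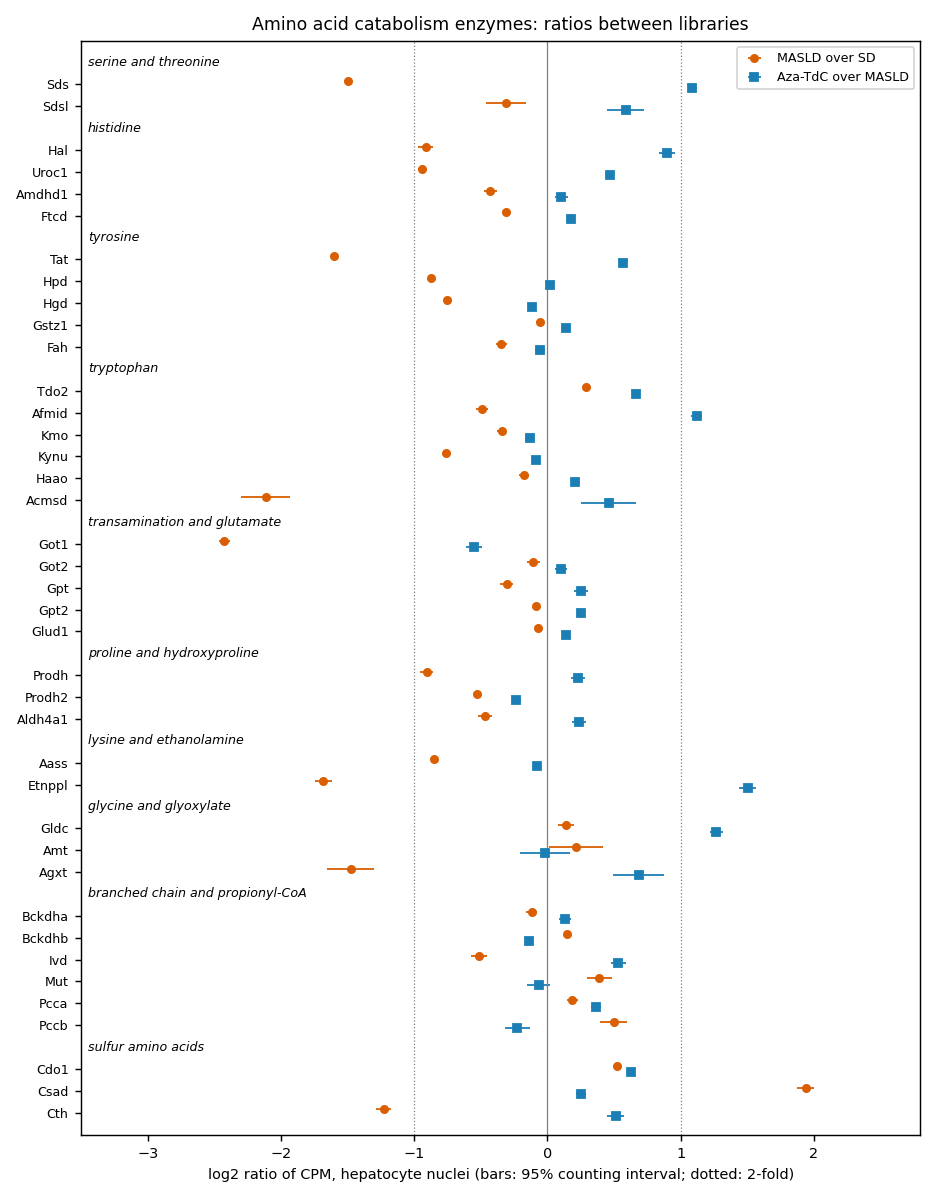
Log2 ratio of CPM in hepatocyte nuclei for each of the 39 enzymes, grouped by amino acid, for MASLD over SD (circles) and Aza-TdC over MASLD (squares); bars are 95% counting intervals and dotted lines mark 2-fold. Got1 lies furthest left at -2.42 and Csad furthest right at 1.94 in MASLD over SD, and Etnppl lies furthest right at 1.502 in Aza-TdC over MASLD.

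Among the serine and threonine enzymes, Sds, serine dehydratase, which turns serine into pyruvate and ammonia, stood at 779 CPM in SD, 276 CPM in MASLD and 587 CPM in Aza-TdC. SD was the highest library, MASLD the lowest, and Aza-TdC lay between them. The log2 ratio was -1.497 (-1.53 to -1.47) for MASLD over SD, a level 2.82-fold lower, and 1.09 (1.06 to 1.12) for Aza-TdC over MASLD. Without cluster 8 these ratios were -0.45 (-0.48 to -0.42) and 0.04 (0.01 to 0.08). The MASLD nuclei then left are mostly periportal, and by tercile MASLD over SD was -1.10 periportally and -0.89 in the middle. Aza-TdC over MASLD was 0.47 and 0.80 in the same order. Sdsl, a homologue of Sds with similar activity whose gene lies beside it (chr5:120458186-120472810 and chr5:120476526-120483932 on GRCm38, on opposite strands), was counted at 19.4 CPM (18.2 to 20.8) for SD, 15.7 CPM (14.5 to 16.9) for MASLD and 23.6 CPM (22.2 to 24.9) for Aza-TdC. Its ratio was -0.31 (-0.46 to -0.16) for MASLD over SD, and Aza-TdC was the highest library, with 0.59 (0.45 to 0.73) over MASLD. Both Sdsl ratios changed sign without cluster 8, to 0.61 and -0.33. By tercile without it, MASLD over SD was 0.05 (-0.13 to 0.24) periportally and 0.27 (-0.11 to 0.63) in the middle. Aza-TdC over MASLD was 0.02 (-0.16 to 0.19) and 0.25 (-0.10 to 0.61), and each of these intervals includes 0.

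The histidine pathway runs through Hal, histidine ammonia-lyase, then Uroc1, urocanate hydratase, then Amdhd1, imidazolonepropionase, and ends with Ftcd, which hands the formimino group to folate. In MASLD 4 of 4 ratios to SD were below 0 and none reached 2-fold; the summed level was 1383 CPM in SD, 889 CPM in MASLD and 1138 CPM in Aza-TdC. Hal stood at 156 CPM in SD, 82.8 CPM in MASLD and 154 CPM in Aza-TdC, so MASLD was the lowest library and the other libraries differed by -0.02 (-0.06 to 0.03) on the log2 scale. Uroc1 stood at 599.6 CPM in SD, 312 CPM in MASLD and 432 CPM in Aza-TdC, with ratios of -0.94 (-0.98 to -0.91) for MASLD over SD and 0.47 (0.44 to 0.50) for Aza-TdC over MASLD. For the later steps the distances were smaller. Amdhd1 was at 170.1 CPM in SD, 126 CPM in MASLD and 136 CPM in Aza-TdC and Ftcd at 457 CPM in SD, 368 CPM in MASLD and 416 CPM in Aza-TdC, with MASLD over SD ratios of -0.43 and -0.31. Without cluster 8 the MASLD over SD ratio was 0.06 for Hal, 0.11 for Amdhd1 and 0.01 for Ftcd, above 0, while that for Uroc1 was -0.57. The MASLD nuclei then left are mostly periportal. By tercile without it, the periportal and middle ratios were -0.51 and -0.42 for Hal and -0.05 (-0.13 to 0.02) and -0.16 for Amdhd1. They were -0.15 and -0.14 for Ftcd and -0.74 and -0.81 for Uroc1.

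The 5 enzymes of tyrosine breakdown together stood at 6104 CPM in SD, 3038 CPM in MASLD and 3453 CPM in Aza-TdC, the widest drop in CPM of any group between SD and MASLD. Tat, tyrosine aminotransferase, which starts the pathway, was counted at 2669.8 CPM in SD, 879.8 CPM in MASLD and 1301 CPM in Aza-TdC. SD lay far above both diet libraries: the ratio was -1.60 (-1.62 to -1.58) for MASLD over SD and -1.04 (-1.05 to -1.02) for Aza-TdC over SD. Between the diet libraries it was 0.56 (0.55 to 0.58), and without cluster 8 it was 0.20. Hpd, hydroxyphenylpyruvate dioxygenase, was at 1685 CPM in SD, 919 CPM in MASLD and 933 CPM in Aza-TdC, and Hgd, homogentisate dioxygenase, at 1067 CPM in SD, 633 CPM in MASLD and 584 CPM in Aza-TdC. For both, the diet libraries lay close together and below SD, with MASLD over SD ratios of -0.87 (-0.89 to -0.86) and -0.75 (-0.78 to -0.73). The last enzymes of the pathway differed less. Gstz1, maleylacetoacetate isomerase, was at 396 CPM in SD, 380.2 CPM in MASLD and 418 CPM in Aza-TdC, and Fah, fumarylacetoacetate hydrolase, at 287 CPM in SD, 226 CPM in MASLD and 217 CPM in Aza-TdC, with MASLD over SD ratios of -0.06 and -0.35.

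In tryptophan breakdown, Tdo2, tryptophan dioxygenase, which opens the kynurenine pathway, stood at 1109 CPM in SD, 1355 CPM in MASLD and 2144 CPM in Aza-TdC. Aza-TdC was the highest library, 1.93-fold above SD, a log2 ratio of 0.95 (0.94 to 0.97) that stopped short of 2-fold. Afmid was at 196 CPM in SD, 139.7 CPM in MASLD and 304 CPM in Aza-TdC: MASLD was the lowest library and Aza-TdC the highest. Its ratio of Aza-TdC over MASLD was 1.12 (1.08 to 1.16), and 1.13 (1.07 to 1.19) without cluster 8. Kmo, kynurenine monooxygenase, at 431 CPM in SD, 339 CPM in MASLD and 309.6 CPM in Aza-TdC, and Kynu, kynureninase, at 1153 CPM in SD, 680.1 CPM in MASLD and 641 CPM in Aza-TdC, were highest in SD. Their MASLD over SD ratios were -0.34 (-0.38 to -0.31) and -0.76 (-0.78 to -0.74), and Aza-TdC lay within -0.13 and -0.09 of MASLD. Haao, hydroxyanthranilate dioxygenase, was at 284 CPM in SD, 251 CPM in MASLD and 290.4 CPM in Aza-TdC, with an Aza-TdC over SD ratio of 0.03 (0.00 to 0.07) whose interval includes 0. Acmsd, which steers tryptophan breakdown away from NAD synthesis, was counted at 31.7 CPM (30.1 to 33.4) for SD, 7.32 CPM (6.52 to 8.19) for MASLD and 10.1 CPM (9.203 to 11.0) for Aza-TdC. It was 4.33-fold lower in MASLD than in SD, a ratio of -2.12 (-2.30 to -1.94) that was -1.79 (-2.03 to -1.56) without cluster 8, and Aza-TdC stayed 3.15-fold below SD.

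Among the aminotransferases, Got1, which exchanges amino groups between aspartate and glutamate in the cytosol, had the furthest ratio of the 39 enzymes. It stood at 632 CPM in SD, 118 CPM in MASLD and 80.2 CPM in Aza-TdC, so both diet libraries were low and Aza-TdC was the lower of them. The ratio was -2.42 (-2.47 to -2.38) for MASLD over SD, 5.37-fold lower, and -2.98 (-3.03 to -2.93) for Aza-TdC over SD, 7.88-fold lower. Without cluster 8 the MASLD over SD ratio was -1.86 (-1.91 to -1.81) and the Aza-TdC over MASLD ratio was -1.12 (-1.19 to -1.05), past 2-fold, where it was -0.55 (-0.62 to -0.49) with it. Got2, its mitochondrial counterpart, stood at 171 CPM in SD, 159 CPM in MASLD and 171 CPM in Aza-TdC, and its ratio was -0.11 (-0.15 to -0.06) for MASLD over SD. The alanine aminotransferases and Glud1 likewise stayed within 2-fold. Gpt, cytosolic, was at 159 CPM in SD, 129 CPM in MASLD and 153 CPM in Aza-TdC, and Gpt2, mitochondrial, at 589 CPM in SD, 555 CPM in MASLD and 660.5 CPM in Aza-TdC. Glud1, glutamate dehydrogenase, which releases ammonia from glutamate, was at 724 CPM in SD, 689 CPM in MASLD and 761 CPM in Aza-TdC, and its 3 ratios between libraries ran from -0.07 to 0.14.

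All 3 proline and hydroxyproline enzymes were below SD in both diet libraries, none past 2-fold. Prodh, proline dehydrogenase, was at 238 CPM in SD, 127 CPM in MASLD and 149 CPM in Aza-TdC, a MASLD over SD ratio of -0.91 (-0.96 to -0.86). Without cluster 8 that ratio was -1.14 (-1.21 to -1.07), past 2-fold. Prodh2, hydroxyproline dehydrogenase, was at 474 CPM in SD, 328 CPM in MASLD and 279 CPM in Aza-TdC. Aldh4a1, which acts in both routes, was at 171 CPM in SD, 123 CPM in MASLD and 145 CPM in Aza-TdC. Aass, aminoadipate semialdehyde synthase, the start of lysine breakdown, stood at 959 CPM in SD, 531 CPM in MASLD and 503 CPM in Aza-TdC. The diet libraries lay together and SD above them, with ratios to SD of -0.85 (-0.88 to -0.83) for MASLD and -0.93 (-0.95 to -0.91) for Aza-TdC.

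Etnppl, placed beside Aass because its relative Phykpl acts on hydroxylysine, was counted at 213 CPM in SD, 66.3 CPM in MASLD and 188 CPM in Aza-TdC. MASLD was low and the other libraries were within -0.18 (-0.22 to -0.14) of each other on the log2 scale. The ratio was -1.68 (-1.74 to -1.62) for MASLD over SD and 1.502 (1.44 to 1.56) for Aza-TdC over MASLD, 2.83-fold higher. Without cluster 8 these were -0.75 (-0.81 to -0.68) and 0.57 (0.50 to 0.64), both within 2-fold. The MASLD nuclei then left are mostly periportal. By tercile, MASLD over SD was -1.31 periportally and -1.36 in the middle, both past 2-fold. Aza-TdC over MASLD was 0.88 and 1.45 in the same order.

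In the glycine and glyoxylate group, Gldc stood at 105 CPM in SD, 115 CPM in MASLD and 277 CPM in Aza-TdC, so Aza-TdC was the high library and the other libraries differed by 0.14 (0.08 to 0.20) on the log2 scale. The Aza-TdC ratios were 1.27 (1.22 to 1.32) to MASLD and 1.41 (1.36 to 1.46) to SD. Without cluster 8 MASLD itself was 1.06 (1.00 to 1.12) over SD, and the Aza-TdC over MASLD ratio was 0.35 (0.30 to 0.40). The MASLD nuclei then left are mostly periportal. By tercile without it, MASLD over SD was 0.51 (0.44 to 0.59) periportally and 0.73 (0.59 to 0.87) in the middle. Pericentrally it was -1.76 (-2.45 to -1.14), on 369 MASLD nuclei of which 299 are of cluster 12. Gldc was thus higher past 2-fold in no tercile. Amt, the aminomethyltransferase of the same cleavage system, was sparse, at 8.72 CPM (7.87 to 9.63) for SD, 10.1 CPM (9.19 to 11.1) for MASLD and 10.0 CPM (9.15 to 10.9) for Aza-TdC, and the intervals of the 3 libraries overlapped. Agxt, alanine-glyoxylate aminotransferase, which detoxifies glyoxylate, was at 23.3 CPM (21.9 to 24.7) for SD, 8.36 CPM (7.50 to 9.28) for MASLD and 13.4 CPM (12.4 to 14.5) for Aza-TdC. SD was the highest library and MASLD the lowest, with intervals that did not overlap. Its ratio was -1.48 (-1.66 to -1.30) for MASLD over SD and -0.81 (-1.02 to -0.61) without cluster 8.

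The 6 enzymes of branched chain amino acid and propionyl-CoA breakdown stayed within 2-fold in all 3 comparisons, and their sum was 1261 CPM in SD, 1330.2 CPM in MASLD and 1388 CPM in Aza-TdC. Bckdha and Bckdhb, subunits of the dehydrogenase that commits branched chain ketoacids to breakdown, stood at 200.2 CPM in SD, 184 CPM in MASLD and 202 CPM in Aza-TdC and at 643 CPM in SD, 711 CPM in MASLD and 648 CPM in Aza-TdC. Ivd, isovaleryl-CoA dehydrogenase of the leucine route, was lowest in MASLD, at 129 CPM in SD, 90.3 CPM in MASLD and 131 CPM in Aza-TdC. In the propionyl-CoA steps MASLD was above SD for each gene. Pcca and Pccb, the propionyl-CoA carboxylase subunits, had MASLD over SD ratios of 0.19 (0.15 to 0.23) and 0.50 (0.40 to 0.60), and Mut, methylmalonyl-CoA mutase, of 0.39 (0.30 to 0.48). Their levels were 219 CPM in SD, 249 CPM in MASLD and 320.3 CPM in Aza-TdC for Pcca, 31.1 CPM in SD, 43.8 CPM in MASLD and 37.5 CPM in Aza-TdC for Pccb and 39.2 CPM in SD, 51.4 CPM in MASLD and 49.1 CPM in Aza-TdC for Mut. Median-ratio scaling, which lowers these ratios by 0.13, leaves the 3 signs as they are.

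Of the sulfur amino acid enzymes, Csad stood at 60.3 CPM in SD, 231 CPM in MASLD and 275 CPM in Aza-TdC. SD was the low library: MASLD was 3.83-fold above it, a ratio of 1.94 (1.88 to 2.00), and Aza-TdC 4.55-fold, a ratio of 2.19 (2.13 to 2.25). Without cluster 8 the MASLD over SD ratio was 1.34 (1.26 to 1.42). Aza-TdC over MASLD was then 0.84 (0.79 to 0.90), where it was 0.25 with cluster 8. The MASLD nuclei then left are mostly periportal. By tercile without cluster 8, MASLD over SD was 1.76 (1.61 to 1.92) periportally and 1.72 (1.57 to 1.88) in the middle. In SD endothelial nuclei Csad stood at 57.9 CPM (33.8 to 92.8), so its SD hepatocyte level was not above that of nuclei that should lack it, while in MASLD the endothelial level was 147 CPM (114 to 187) and in Aza-TdC 99.96 CPM (70.4 to 138). Cdo1, cysteine dioxygenase, which makes the substrate of Csad, was at 453 CPM in SD, 652 CPM in MASLD and 1005 CPM in Aza-TdC, in steps of 0.52 (0.50 to 0.55) and 0.62 (0.60 to 0.65). Aza-TdC over SD was 1.15 (1.13 to 1.17), past 2-fold. Cth, cystathionine gamma-lyase, which makes cysteine from cystathionine, was highest in SD, at 198 CPM in SD, 84.5 CPM in MASLD and 120.5 CPM in Aza-TdC. Its MASLD over SD ratio was -1.23 (-1.29 to -1.17), and -0.98 (-1.05 to -0.90) without cluster 8.

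**Figure D2:**
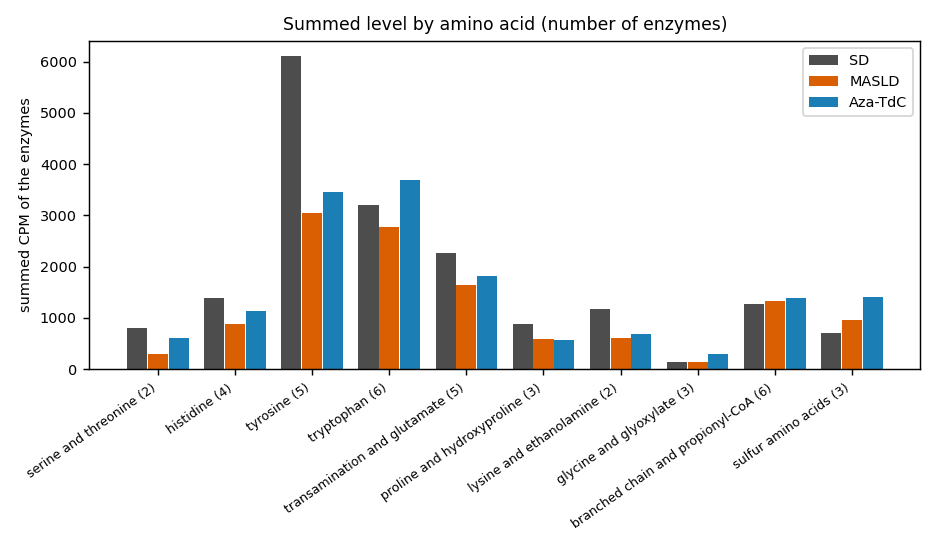
Summed CPM of the enzymes of each amino acid group in hepatocyte nuclei of the 3 libraries, with the number of enzymes in parentheses; bars start at 0 and there are no replicates. Tyrosine enzymes sum to 6104 CPM for SD and 3038 CPM for MASLD, and the sulfur amino acid enzymes are highest in Aza-TdC at 1399.9 CPM.

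Zonation was described within each library by the periportal over pericentral ratio, with no enzyme among the markers that set the zones. All 14 pericentral and all 14 periportal markers were higher on their own side in SD and Aza-TdC, while in MASLD 13 of 14 pericentral markers were, with Ces1b the exception. These markers set the score, so their direction was largely fixed by the cut and is no check of the zones. In SD, Ces1b at -0.03, Cps1 at 0.02 and Ass1 at 0.15 differed little between the outer terciles. In SD, 6 of 39 enzymes were periportal past 2-fold (Sds, Etnppl, Sdsl, Hal, Gldc and Uroc1), where 1.75% of 11892 genes other than zone markers were. Csad alone was pericentral, where 2.46% of genes were. In MASLD 11 were periportal (2.81% of genes) and 2 pericentral (2.96%), and in Aza-TdC 10 were periportal (3.11%) and 1 pericentral (2.64%). Leaving out cluster 8 was done in 2 ways here. With the terciles cut again over the 2863 MASLD nuclei left, 7 enzymes were periportal in MASLD. With the terciles kept as cut over all hepatocyte nuclei, which leaves 369 pericentral nuclei, 13 were. Of these 369, 299 are of cluster 12, which like SD cluster 6 had the glutamine synthetase gene Glul among its leading genes. In SD, cluster 6 holds 231 of 2289 pericentral nuclei. The MASLD gradients with the terciles kept thus also carry a difference in make-up.

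**Figure D3:**
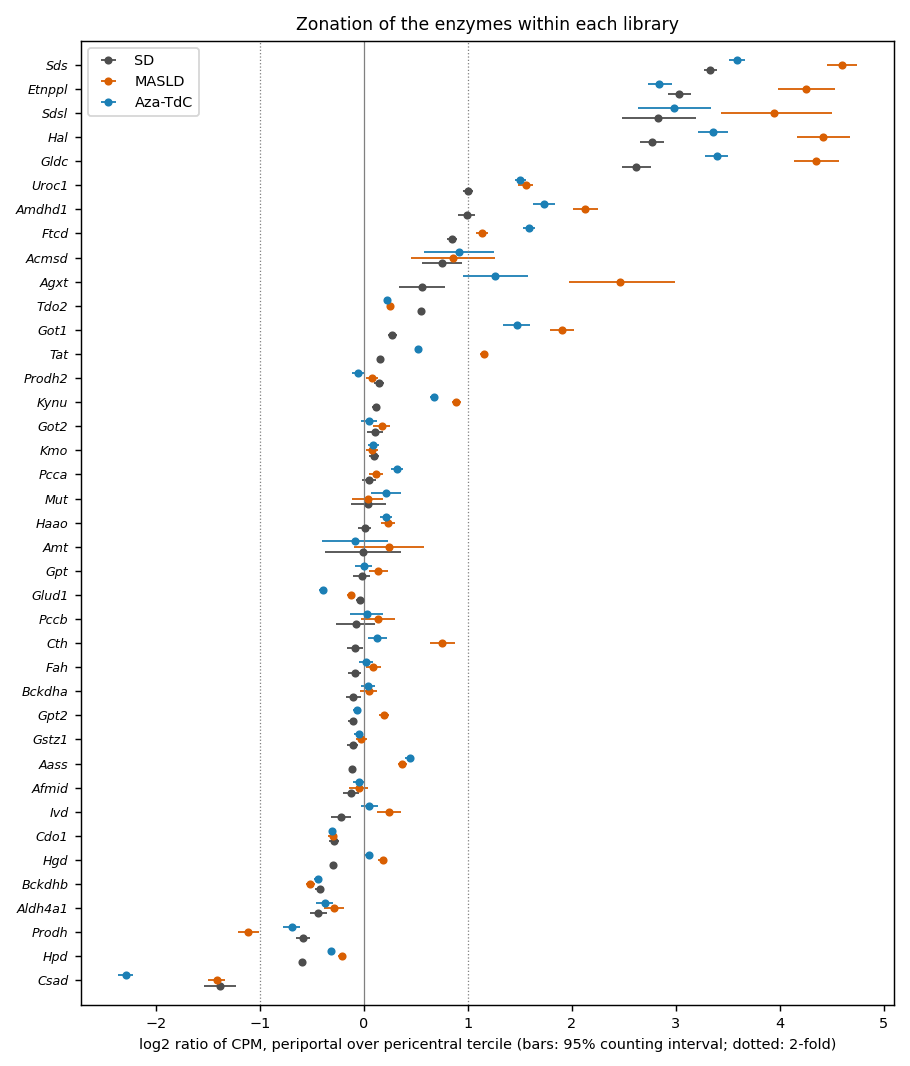
Log2 ratio of CPM in the periportal over the pericentral tercile for each enzyme in the 3 libraries, ordered by the SD value; bars are 95% counting intervals and dotted lines mark 2-fold. Sds lies furthest right in MASLD at 4.60, and Csad furthest left in Aza-TdC at -2.29.

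With all hepatocyte nuclei, the serine enzyme Sds had the steepest periportal gradient. It stood at 1542, 734 and 153 CPM in the periportal, middle and pericentral terciles of SD. In MASLD the same terciles held 680.3, 134 and 28.0 CPM, and in Aza-TdC 991, 685 and 82.5 CPM. MASLD was the lowest library in each tercile, and its middle tercile stood further below the others than its periportal one. Without cluster 8, in the same terciles, the MASLD over SD ratio of Sds was -1.10 (-1.14 to -1.07) periportally and -0.89 (-0.98 to -0.81) in the middle, within 2-fold and no longer the wider of the pair. The gradients were 3.33 (3.27 to 3.39) for SD, 4.60 (4.46 to 4.75) for MASLD and 3.59 (3.51 to 3.67) for Aza-TdC. Sdsl, Hal, Etnppl and Gldc shared that order for MASLD, with gradients of 3.95, 4.41, 4.25 and 4.35. In SD the same enzymes had 2.83, 2.77, 3.03 and 2.62, and in Aza-TdC 2.98, 3.36, 2.84 and 3.39. Once cluster 8 is left out, that order depends on how the terciles are cut. With the terciles cut again without it, the MASLD gradients were 1.82 for Sds, 1.41 for Sdsl, 1.72 for Hal, 2.01 for Etnppl and 1.36 for Gldc, all below those of SD. With the terciles kept, they were 4.82, 4.46, 4.88, 5.81 and 4.89, all above those of SD, on 4 to 62 pericentral UMIs each. The gradients rest on few UMIs at the pericentral end: Sdsl had 33 UMIs there in MASLD, and Hal 134.

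Several enzymes were less graded across zones in SD than in the diet libraries. The zone score itself spread less in SD, with a standard deviation of 0.764, beside 0.905 in MASLD and 0.931 in Aza-TdC. Of the zone markers, Ass1 had gradients of 0.15, 1.57 and 1.46 in SD, MASLD and Aza-TdC, while Hsd17b13 had 2.99, 3.16 and 2.92. Whether steeper gradients were particular to these enzymes was not tested. Agxt had a gradient of 0.56 (0.34 to 0.78) with SD, 2.46 (1.97 to 2.99) with MASLD and 1.26 (0.95 to 1.57) with Aza-TdC. Got1 had 0.27 (0.23 to 0.31), 1.90 (1.79 to 2.02) and 1.47 (1.34 to 1.60) in the same order. For Got1 the MASLD terciles stood at 203, 99.5 and 54.4 CPM from periportal to pericentral, where SD stood at 687, 648 and 569 CPM. Tat followed with 0.15 (0.13 to 0.17), 1.15 (1.12 to 1.19) and 0.51 (0.49 to 0.54), and Kynu with 0.11 (0.08 to 0.14), 0.89 (0.84 to 0.93) and 0.67 (0.63 to 0.71). Without cluster 8 and with the terciles cut again, the MASLD gradients of Agxt, Tat, Uroc1 and Ftcd were within 2-fold, at 0.74, 0.93, 0.98 and 0.81, while that of Got1 was 1.24. With the terciles kept all 5 were past 2-fold, at 1.77, 1.19, 2.32, 1.78 and 2.30, as was Kynu at 1.43. In Uroc1, Amdhd1 and Ftcd of the histidine route, Aza-TdC and MASLD both had steeper gradients than SD: Uroc1 had 1.00 for SD, 1.55 for MASLD and 1.504 for Aza-TdC. With the terciles cut again without cluster 8, the MASLD values of Uroc1 and Ftcd were not above those of SD.

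Pericentral enzymes were fewer. Csad stood at 33.6, 55.8 and 87.8 CPM from periportal to pericentral in SD, 121, 244 and 322 CPM in MASLD and 107, 192 and 523 CPM in Aza-TdC. Its gradient was -2.29 (-2.37 to -2.22) in Aza-TdC, beside -1.39 in SD and -1.42 in MASLD. Prodh was pericentral past 2-fold in MASLD alone, at -1.11 (-1.22 to -1.01), beside -0.59 (-0.66 to -0.52) in SD and -0.70 (-0.78 to -0.62) in Aza-TdC. Hpd leaned pericentral in SD, at -0.60 (-0.62 to -0.57), and less in MASLD, at -0.22 (-0.25 to -0.18), a value that without cluster 8 was -0.07 with the terciles cut again and -0.59 with the terciles kept. The branched chain subunit Bckdhb leaned the same way in all 3 libraries, from -0.52 to -0.43. Afmid was level in all 3, from -0.12 to -0.05, and stood at 303, 295 and 313 CPM across the Aza-TdC terciles.

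Within zones ranked in each library, more enzymes were lower past 2-fold in MASLD than in SD toward the central vein. The median log2 ratio over the 39 was -0.26 in the periportal, -0.52 in the middle and -0.48 in the pericentral tercile. With 1 zone score over all libraries, cut at the SD terciles, 55.5% of MASLD nuclei fell in the pericentral range and 20.3% in the periportal range. Zone make-up and level per nucleus within a tercile thus cannot be told apart in these values. In the periportal tercile 6 of 39 enzymes were lower past 2-fold, where 3.34% of genes were. In the middle tercile 10 were lower (3.97% of genes) and in the pericentral tercile 14 were lower (3.78% of genes), while Csad was higher in each (10.1%, 10.8% and 9.7% of genes). Without cluster 8 the counts of lower enzymes were 6, 9 and 15, on 1916, 578 and 369 MASLD nuclei. The shares of all genes that were lower there were 3.36%, 3.99% and 5.07%. Hal, for example, had MASLD over SD ratios of -0.57 (-0.64 to -0.50) periportally, -1.68 (-1.81 to -1.55) in the middle and -2.21 (-2.49 to -1.94) pericentrally. Without cluster 8, in the same terciles, Hal had -0.51 (-0.58 to -0.44), -0.42 (-0.59 to -0.26) and -2.61 (-3.40 to -1.92), so its middle value was within 2-fold and near the periportal one. Got1 had -1.76 (-1.82 to -1.70), -2.70 (-2.79 to -2.62) and -3.39 (-3.49 to -3.28) in the same order. Without cluster 8 Got1 kept that order, at -1.72, -2.22 and -3.75. The pericentral values without cluster 8 also carry a difference in make-up. Of the 369 MASLD nuclei left there, 299 are of cluster 12, while in SD cluster 6 holds 231 of 2289. Its part in these values was not tested.

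Between Aza-TdC and MASLD, 1 enzyme (Afmid) was higher past 2-fold in the periportal tercile, where 1.57% of genes were. In the middle tercile 7 were (Etnppl, Sds, Gldc, Hal, Sdsl, Afmid and Agxt; 2.25% of genes) and the same 7 in the pericentral tercile (1.68% of genes), with none lower in any (3.28%, 4.07% and 3.76% of genes). In the middle tercile Sds stood at 734 CPM in SD, 134 CPM in MASLD and 685 CPM in Aza-TdC, a ratio of 2.35 (2.28 to 2.43). Etnppl had 2.52 (2.38 to 2.65) and Gldc 2.11 (2.01 to 2.20) there. The periportal markers did not all move with them in the middle tercile. Cyp2f2 stood at 225 CPM in SD, 135 CPM in MASLD and 399 CPM in Aza-TdC. Hsd17b13 stood at 220 CPM in SD, 423 CPM in MASLD and 654 CPM in Aza-TdC. Ctsc, Hsd17b6, Cdh1 and Aldh1b1 were also higher in MASLD than in SD there, and the other periportal markers were lower. With 1 zone score over all libraries, cut at the SD terciles, 20.3% of MASLD and 40.6% of Aza-TdC nuclei fell in the periportal range, beside 33.3% of SD. Zone make-up and level per nucleus within the middle tercile thus cannot be told apart here. Without cluster 8, in the same terciles, Afmid and Etnppl alone were higher in the middle tercile (2.09% of genes), with 1.39 and 1.45, and Sds had 0.80. In the pericentral tercile 7 were higher (2.99% of genes) on 369 MASLD nuclei, 299 of them of cluster 12. Sds, Sdsl, Hal, Etnppl and Gldc were among the 7 as before. Uroc1 at 1.12 and Amdhd1 at 1.24 took the place of Afmid at 0.95 and Agxt at 0.67.

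Against SD, Aza-TdC had 3 enzymes higher and 2 lower past 2-fold in the periportal tercile (7.74% and 3.55% of genes), 4 and 2 in the middle (7.42% and 3.49%), and 3 and 7 in the pericentral (6.47% and 3.88%). Csad, Cdo1, Acmsd and Got1 were past 2-fold in every tercile, Csad and Cdo1 higher and Acmsd and Got1 lower. Gldc was higher in the periportal and middle terciles, at 1.25 (1.18 to 1.31) and 1.70 (1.62 to 1.79). Tdo2 passed 2-fold in the middle and pericentral terciles, at 1.03 (1.00 to 1.06) and 1.08 (1.05 to 1.11). Tat, Hgd, Kynu, Aass and Agxt were lower past 2-fold in the pericentral tercile, with Kynu at -1.24 (-1.28 to -1.20) and Hgd at -1.03 (-1.06 to -0.99).

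**Figure D4:**
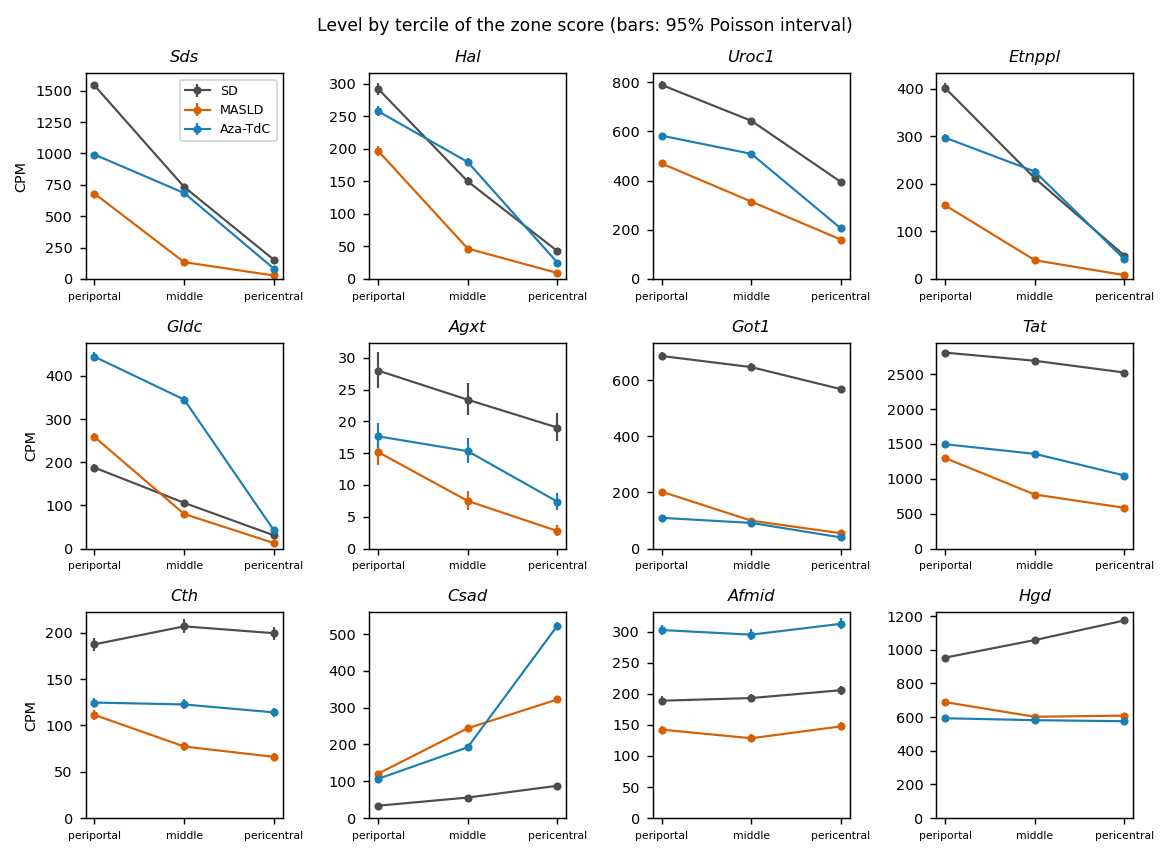
CPM of 12 enzymes in the periportal, middle and pericentral terciles of hepatocyte nuclei in the 3 libraries; bars are 95% Poisson intervals, and each panel has its own axis from 0. Got1 and Tat in SD lie above both diet libraries in every tercile, and Csad in Aza-TdC reaches 523 CPM in the pericentral tercile.

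By cluster, the levels followed where each cluster's nuclei lie along the zone score. MASLD cluster 9, with 1857 of its 2368 nuclei in the periportal tercile, held Sds at 654 CPM. Cluster 8, with 131, 1469 and 1678 nuclei in the periportal, middle and pericentral terciles, held it at 46.6 CPM. The SD clusters 1 and 0 held 1461 and 153 CPM, and the Aza-TdC clusters 13 and 11 held 943 and 102 CPM. Each library thus had a cluster rich in Sds and one poor in it, and the values of the rich clusters kept the order of SD, Aza-TdC and MASLD. Got1 did not divide so in SD, with 655 CPM in cluster 1 and 627 CPM in cluster 0. In MASLD it stood at 196 CPM in cluster 9 and 73.7 CPM in cluster 8, and in Aza-TdC at 106 CPM in cluster 13 and 45.8 CPM in cluster 11. Clusters 6 and 12 held nuclei of the pericentral tercile alone, and the glutamine synthetase gene Glul was among the leading genes of both. They held Kynu at 675 CPM in SD cluster 6, 309 CPM in MASLD cluster 12 and 135 CPM in Aza-TdC cluster 12. In the same clusters Prodh stood at 381, 293 and 321 CPM, above the level of the other large clusters of its library.

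The share of nuclei with a UMI was compared after each nucleus was thinned to 2000 UMIs, which left out 148, 227 and 188 shallower hepatocyte nuclei in SD, MASLD and Aza-TdC. Got1 was found in 67.6% (66.5 to 68.7) of SD, 19.5% (18.5 to 20.5) of MASLD and 14.4% (13.5 to 15.2) of Aza-TdC hepatocyte nuclei. In endothelial nuclei the share was 32.3% (20.9 to 45.3) of 62 in SD, 9.86% (4.06 to 19.3) of 71 in MASLD and 0 of 55 in Aza-TdC, which allows a share of up to 5.45% (3 counts of the 55). Unthinned, the hepatocyte shares were 91.3%, 41.9% and 35.8%. Gldc was found in 16.7% (15.8 to 17.6), 17.5% (16.5 to 18.4) and 36.6% (35.4 to 37.7) of hepatocyte nuclei, beside 9.68%, 4.23% and 18.2% of endothelial nuclei. Csad in SD, found in 11.3% of hepatocyte and 16.1% of the 62 endothelial nuclei, was not above the endothelial share by this measure. Its SD gradient across zones was -1.39 (-1.54 to -1.23), and the part of free RNA in these values was not tested. Pccb in MASLD, and Sdsl, Mut and Pccb in Aza-TdC, were also at or below the endothelial share. The other enzymes were above it in each library.

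Of the 39 genes, 13 overlap a listed gene on the opposite strand and none overlap one on the same strand. Among those past 2-fold in a comparison these are Sds (with Plbd2), Acmsd (with 2900009J06Rik), Afmid (with Tk1) and Csad (with Zfp740). The sources used here do not give whether counting used the strand, so reads of such partners could be mixed.

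Genes beside these pathways gave a wider view, from 8 further lists. In the urea cycle and glutamine list 4 of 10 genes were lower past 2-fold in MASLD than in SD and none higher, with a median of -0.78, where 4.15% of all genes were lower and 11.9% higher. Ass1, argininosuccinate synthase, stood at 1557 CPM in SD, 323 CPM in MASLD and 453 CPM in Aza-TdC, a MASLD over SD ratio of -2.27 (-2.30 to -2.24). Gls2, liver glutaminase, had -2.08, Asl, argininosuccinate lyase, -1.46, and Slc25a15, the mitochondrial ornithine carrier, -1.28; Ass1, Asl and Gls2 also serve as periportal zone markers. Against SD, Aza-TdC had 5 of the 10 lower, where 4.04% of all genes were. Of 12 amino acid transporters 5 were lower in MASLD and none higher, with a median of -0.83. Among them Slc7a2, the cationic amino acid transporter, was at 5246 CPM in SD, 2125 CPM in MASLD and 2711 CPM in Aza-TdC, Slc38a2 had a ratio of -1.41, Slc38a3 of -1.29 and Slc43a1 of -2.92 (-3.36 to -2.49). The fifth, named after its value was seen, was Slc16a10 at -1.14.

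In the phenylalanine and methionine list 3 of 9 were lower and none higher. Gnmt, glycine methyltransferase, had a MASLD over SD ratio of -1.58, Cbs, cystathionine beta-synthase, -1.53, and Pcbd1 0.84. Of the 17 other branched chain steps, Ppm1k, the phosphatase that activates the branched chain ketoacid dehydrogenase, was higher, at 65.7 CPM in SD, 212 CPM in MASLD and 165 CPM in Aza-TdC, a ratio of 1.69 (1.63 to 1.75). None of the 17 was lower, and the median was 0.34, beside 0.15 over all genes. Hsd17b10 and Acadsb of that list had 0.83 and -0.49.

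Of 11 measured glycine, serine and one-carbon genes, Aldh1l1, formyltetrahydrofolate dehydrogenase, was lower at -1.51 and Grhpr, glyoxylate reductase, higher at 1.00, while Sardh had -0.76 and Gcat 0.53. None of 10 other lysine and tryptophan genes passed 2-fold, with Pipox at -0.67, Qprt at 0.62, Kyat1 at -0.52 and Dhtkd1 at -0.51. None of the 4 measured taurine and sulfite genes passed it either, with Ado at 0.63, Suox at 0.56, Baat at 0.29 and Slc6a6 at -0.26. Of 13 regulators, Klf15, a fasting and glucocorticoid responsive factor of amino acid breakdown, was lower at -1.19 (-1.24 to -1.14) and Cebpa higher at 1.02 (0.93 to 1.10). Hnf4a had -0.92 and Tcf7l2 -0.56. Between Aza-TdC and MASLD, 1 transporter of 12 was higher past 2-fold (Slc3a1, 1.09), 1 gene of the 10 in the urea cycle and glutamine list was lower (Oat, -1.38), both named after their values were seen, and none passed in the other 6 lists. Klf15 stood at 225 CPM in SD, 98.5 CPM in MASLD and 94.4 CPM in Aza-TdC, so its levels in the diet libraries were alike and below SD.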

How the data were processed

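Nuclear RNA of 3 frozen liver samples was deposited as 1 matrix of UMI counts per gene and barcode for each library, which the authors made with Cell Ranger, whose version was 6.1.2 per the file headers; the submitters' processing notes name Seurat 4.4.0, mm10 and GRCm38. The deposited counts are not normalized. Barcodes under 500 UMIs or 300 genes or over 5% mitochondrial UMIs were dropped, which left 7139, 6726 and 7591 nuclei, which were clustered with scanpy 1.11.5 (3000 variable genes, 30 components, 15 neighbours, Leiden resolution 1) and named from fixed markers. The markers Pkhd1, Tox and Cidec were left out of the other classes because earlier results were known. No doublet caller was used, so doublets remain. UMIs were summed over hepatocyte nuclei and zone terciles and divided by the total (CPM). Ratios have exact conditional binomial intervals, levels Poisson intervals and shares Clopper-Pearson intervals, all at 95%. With 1 library per group no test was made. All 39 enzymes are reported; of 8 further lists, up to 4 genes each are named, those with the largest absolute log2 ratio of MASLD over SD; some genes and 1 promoter that these rules chose are not reported here. The enzymes, lists and markers were chosen with earlier results of these data known. Coordinates are from GENCODE on GRCm38, and promoters from RefSeq on GRCm38.p6. The calculation was checked on simulated counts. Alternatives covered scaling, filters, clustering, nuclear depth, weighting, fold, zone definition and, added after seeing the data, leaving out cluster 8 or 10 and a zone score over all libraries.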

Additional observations from a re-analysis of the deposited data

Results flagged for a closer look

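For 9 pairs of an enzyme and a comparison, the periportal and the pericentral tercile moved in opposite directions with counting intervals on opposite sides of 0. With 1 library per group the difference between terciles was not tested, and each value below is the pericentral minus the periportal log2 ratio. In MASLD over SD, Gldc gave -1.73, from 0.46 (0.39 to 0.54) periportally to -1.27 (-1.52 to -1.02) pericentrally, and Gpt2 gave -0.301. In Aza-TdC over MASLD, Csad gave 0.875, from -0.18 (-0.27 to -0.08) to 0.70 (0.65 to 0.75), Ftcd gave -0.455, Amdhd1 0.4 and Hpd 0.103. In Aza-TdC over SD, Glud1 gave 0.361, Ivd -0.272 and Haao -0.203. Apart from Gldc and Csad, the terciles concerned all lay within 0.5 of a log2 ratio of 0. Without cluster 8, 299 of the 369 pericentral MASLD nuclei left are of cluster 12. Of the 6 pairs that involve MASLD, 3 held without cluster 8 in the same terciles (Gldc, Gpt2 and Amdhd1). The others did not: Ftcd had 0.13 periportally and 0.32 pericentrally, Hpd -0.03 and -0.29, and Csad -0.10 (-0.20 to 0.00) and 0.74.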

How the results depend on the processing

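No called enzyme changed direction under any alternative tried. At 1.5-fold, 14 enzymes were lower in MASLD than in SD (9.77% of all genes), 9 were higher in Aza-TdC than in MASLD (6.14%), 5 were higher and 11 lower in Aza-TdC than in SD (17.9% and 10.1%), and 3 were pericentral in SD (5.4%) and 2 in Aza-TdC (5.21%). Median-ratio scaling gave 11 lower in MASLD than in SD. With hepatocyte nuclei classed one by one by their own markers (2455, 1489 and 2137 nuclei), and likewise with no filter on barcodes, 2 enzymes were higher in Aza-TdC than in MASLD in place of 4. Without cluster 8, which leaves 2863 MASLD nuclei, 4 enzymes were lower and 2 higher in MASLD than in SD, 1 was higher and 1 lower in Aza-TdC than in MASLD, where the median was 0.0988, and 7 were periportal in MASLD with the terciles cut again, or 13 with the terciles kept. That this alternative removes nuclei mostly of the middle and pericentral terciles follows from its construction; what else it removes was not tested. Leaving out cluster 10, Leiden resolution 2, at least 200 UMIs and at most 1% mitochondrial UMIs changed no call. No paired analysis was possible because each group has 1 library, and no replicate could be left out. Counts of pericentral UMIs limit the steepest gradients.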
